A study of Mus musculus with 9 samples.

Results

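Cytochrome P450 (P450) genes were examined in the colon RNA of 9 male ICR mice, an outbred strain. A gene was taken as a P450 gene when its symbol was Cyp, a number, a letter and a number with nothing after it. Of 21498 symbols measured, 93 had this form, and 66 of them were above 0 in at least 1 mouse. The other 27 were at 0 in all 9 mice, among them Cyp7a1, the rate-limiting enzyme of bile acid synthesis, Cyp1a2, Cyp17a1, Cyp11b1 and Cyp11b2. Levels are given as FPKM, fragments scaled to transcript length and to the mapped fragments of the library, so that levels of different genes can be set side by side.

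The mice were 5 weeks old at the start and were killed at the end of week 18, with 3 mice per group. Control mice received no azoxymethane (AOM, a colon carcinogen), no DSS (dextran sulfate sodium, which brings on colitis) and no antibody. Both other groups received AOM at 10 mg/kg once and then 3 cycles of DSS in the drinking water, the first at 2% for 7 days and the later ones at 1.5% for 5 days each. During the DSS cycles, 1 of these groups was injected intravenously with a rabbit polyclonal antibody against S100a9 (AOM/DSS + anti-S100a9 Ab) and the other with negative control IgG (AOM/DSS + IgG Ab), each at 1.5 mg/kg. Their mice are called the anti-S100a9 mice and the IgG mice. The labels name the Control tissue normal mucosa and the tissue of both AOM/DSS groups adenocarcinoma, while the text of the study also speaks of mucosa for the anti-S100a9 group, so that treatment and the kind of tissue sampled cannot be told apart. The comparisons ask how the P450 genes differ in AOM/DSS tissue from normal mucosa, and whether they differ when S100a9 is blocked.

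P450 enzymes are haem proteins that insert an oxygen atom into their substrates, with electrons passed on from a reductase in the endoplasmic reticulum or from ferredoxin in mitochondria. Families CYP1 to CYP3 mostly oxidize drugs, carcinogens and fatty acids, family CYP4 hydroxylates fatty acids and eicosanoids, and other families make or clear steroids, bile acids, vitamin D and retinoic acid. In the intestine, many of the foreign-compound enzymes are made by the absorptive epithelium, and AOM itself is known to be activated by Cyp2e1.

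Before the levels, promoter sequence is shown for 3 genes called lower in AOM/DSS + IgG Ab than in Control, Cyp2c55, Cyp2c69 and Cyp2d10. RefSeq promoter windows on GRCm38.p6 (250 bases before and 50 after the start of transcription) matched 53 of the 66 P450 genes. The stretches are the 100 bases before the annotated start of each gene, written 5′ to 3′ on the strand of the gene. They lie at chr19:39006919-39007018 (plus strand), chr19:39886800-39886899 (minus strand) and chr15:82407196-82407295 (minus strand), respectively. Capitals mark the TATA box letters TATAAA or the HNF4 motif CAAAGTCCA, on either strand.
Cyp2c55: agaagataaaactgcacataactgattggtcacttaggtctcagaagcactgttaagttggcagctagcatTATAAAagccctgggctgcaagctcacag
Cyp2c69: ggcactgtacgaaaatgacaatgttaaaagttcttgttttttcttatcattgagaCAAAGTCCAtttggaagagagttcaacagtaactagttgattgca
Cyp2d10: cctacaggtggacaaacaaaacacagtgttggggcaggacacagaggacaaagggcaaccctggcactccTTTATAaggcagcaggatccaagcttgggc

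TATAAA was held by 22 of the 53 P450 genes with a window (41.5%) against 15.7% of all 27025 genes with one. CAAAGTCCA, a motif bound by the nuclear receptor HNF4, was held by 9 P450 genes (17.0%) against 0.555% of all genes. Of these 9, 6 were CYP2C genes (Cyp2c40, Cyp2c65, Cyp2c67, Cyp2c68, Cyp2c69 and Cyp2c70), and the others were Cyp3a11, Cyp3a16 and Cyp8b1. GCGTG, the core bound by the aryl hydrocarbon receptor, was held by 14 P450 genes (26.4%), Cyp1a1 and Cyp1b1 among them, against 35.2% of all genes. CAAAGT, the first letters of the HNF4 motif, was held by 37.7% of the P450 genes with a window against 16.1% of all genes. For GTTAAT, bound by HNF1, the shares were 17.0% and 8.24%. The nuclear receptor letters AGGTCA had shares of 18.9% and 18.1%, and their variant with the letters AGTTCA had 18.9% and 15.7%. A CCAAT box was held by 50.9% and 41.1%, respectively. TTTATNG, bound by CDX factors of the gut epithelium, was held by 13.2% and 12.5%. For TGACTCA, bound by AP-1, the shares were 9.43% and 5.95%. The STAT letters TTCNNNGAA were found in 5.66% and 9.55%, and the GATA factor letters GATAA in 41.5% and 28.4%. The 12 motifs were searched on both strands and were chosen after the levels were seen. A match describes letters, not a bound site, and genes of a P450 cluster are related copies, so that they are not independent.

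P450 messages made up a small share of colon RNA, between 0.0345% and 0.117% of the total FPKM of a mouse. Of the 66 genes, 9 had a mean over all mice of at least 10 FPKM, 29 of at least 1 FPKM, and 38 were above 0 in every mouse. The sum over the 66 genes was 384, 413 and 368 FPKM in Control, 114, 216 and 198 FPKM in the IgG mice and 233, 247 and 370.2 FPKM in the anti-S100a9 mice. The IgG sums all lay below the Control sums, and the anti-S100a9 sums lay above the IgG sums, with replicate 3 inside the Control range. CYP2C and CYP2D genes carried most of this difference in level. The CYP2D sum was 137, 141 and 160.2 FPKM in Control, 15.2, 78.8 and 46.4 FPKM in the IgG mice and 86.2, 91.7 and 119.8 FPKM in the anti-S100a9 mice. The CYP2C sum was 102, 106 and 63.6 FPKM, 1.97, 19.9 and 13.1 FPKM and 44.4, 28.1 and 124 FPKM in the same order of groups. In contrast, the 5 cholesterol and bile acid enzymes summed to 15.1 to 20.5 FPKM in Control, 17.2 to 33.1 FPKM in the IgG mice and 17.8 to 19.1 FPKM in the anti-S100a9 mice, ranges that overlap.

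**Figure D1:**
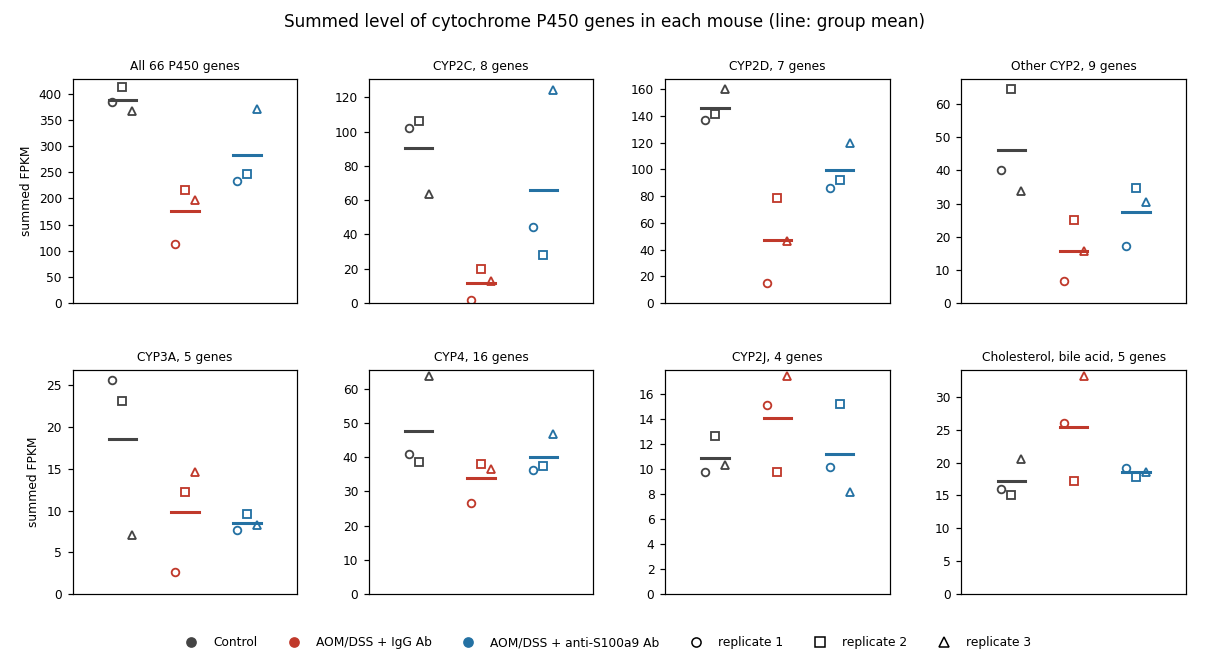
Summed FPKM of the P450 genes in each mouse, for all 66 genes and for 7 classes, with 1 symbol per mouse, colours for the 3 groups and a line at each group mean. The IgG mice lie below the Control mice in the panels for all genes, CYP2C, CYP2D, other CYP2 and, narrowly, CYP4 genes, while in the CYP3A, CYP2J and cholesterol panels the groups overlap.

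Libraries were compared before the tests. Relative depth, read from the steps between low values, lay between 0.851 and 1.12 of that of Control replicate 1. The correlation of log2 values between mice of a group was between 0.917 and 0.970, and between mice of different groups it was between 0.839 and 0.972. The colon epithelium markers Epcam, Cdh1, Vil1, Krt8, Krt18 and Krt19 were present in every library, with summed levels of 3891 to 5158 FPKM in Control, 3628 to 5037 FPKM in the IgG mice and 3419.7 to 4336 FPKM in the anti-S100a9 mice. These sums overlap, but of the 6 genes Krt18 was called higher in AOM/DSS + IgG Ab versus Control, at 1.19 (SE 0.27, adjusted p = 0.0256), and lower with anti-S100a9 than with IgG, at -1.42 (SE 0.27, adjusted p = 0.0129). Markers of absorptive colonocytes are given beside the CYP2C and CYP2D genes.

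Differences were tested with limma on log2(FPKM + 0.1) over the 15278 genes that reached 0.1 FPKM in 3 or more mice, and a gene was called at a Benjamini-Hochberg adjusted p under 0.05 over all of these. Fold changes are on that scale, which understates the change of low genes. Of the 66 P450 genes, 43 passed the filter and 23 did not. In AOM/DSS + IgG Ab versus Control, 6 P450 genes were downregulated (Cyp2c55, Cyp2c69, Cyp2d10, Cyp2d22, Cyp2d34 and Cyp2e1), where 3.01% of all tested genes were called lower. Cyp2b10 and Cyp21a1, which passed the filter through the IgG mice, were upregulated, where 8.18% of all tested genes were called higher. The median log2 fold change of the 43 tested P450 genes was -0.59, against 0.09 over all tested genes. A lower mean was found for 30 of the 43, against 42.4% of all tested genes, and 20 of the 43 had every IgG mouse below every Control mouse, against 10.2% of all tested genes. With the thresholds of the study, an unadjusted p under 0.05 and a change of over 2-fold, 16 P450 genes were lower and 2 higher, against 5.19% and 8.43% of all tested genes. The call count changed when single mice were left out, and the cause of this change was not tested. It was 14 downregulated P450 genes without IgG replicate 2, the IgG mouse with the highest P450 sum, and 5 without IgG replicate 1. It was 4 without anti-S100a9 replicate 2 and 3 without Control replicate 3 or anti-S100a9 replicate 3. It was 2 without Control replicate 1 or 2, IgG replicate 3 or anti-S100a9 replicate 1. The share of all tested genes called lower is not given for these fits, so the counts cannot be read as particular to P450 genes.

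**Figure D2:**
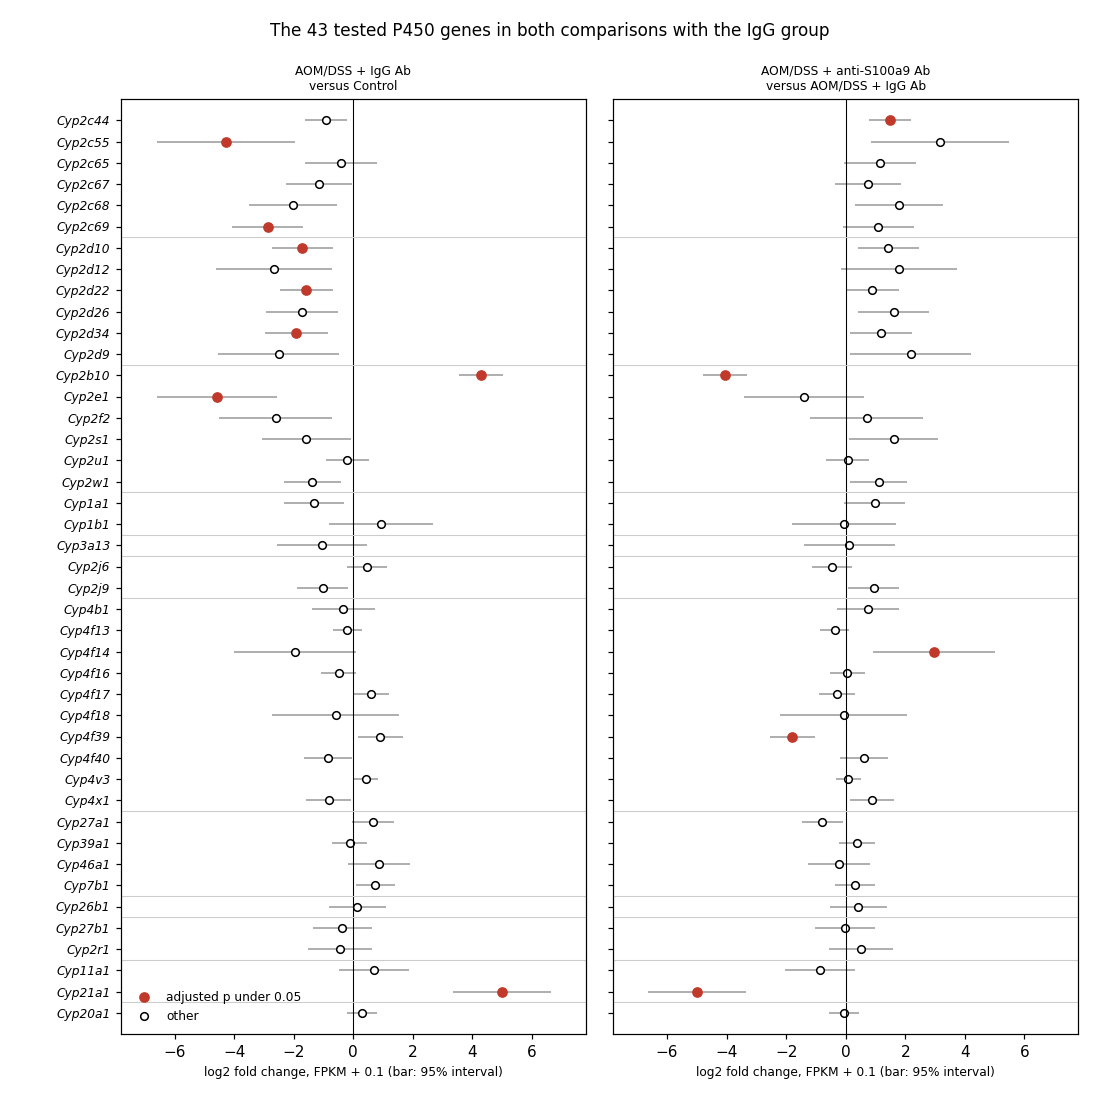
Log2 fold changes of the 43 tested P450 genes, grouped by class between the horizontal lines, for AOM/DSS + IgG Ab versus Control (left) and AOM/DSS + anti-S100a9 Ab versus AOM/DSS + IgG Ab (right), with 95% intervals as bars. Filled points mark an adjusted p under 0.05. All 6 tested CYP2C and all 6 tested CYP2D genes lie left of 0 in the left panel and right of 0 in the right panel, and both panels use the same IgG mice.

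Cyp2c55, an enzyme of arachidonic and linoleic acid oxidation, was among the most abundant colon P450 messages. Its level was 86.1, 86.9 and 48.5 FPKM in the 3 Control mice, 0.717, 10.4 and 5.84 FPKM in the IgG mice and 31.9, 10.3 and 111 FPKM in the anti-S100a9 mice. Every IgG mouse was below every Control mouse, and the anti-S100a9 mice ran from the level of the highest IgG mouse to above the Control mice. In AOM/DSS + IgG Ab versus Control, Cyp2c55 (chr19:39007019-39042693, plus strand) was downregulated, with log2 fold change -4.27 (SE 1.02, adjusted p = 0.0317). It made up 13.2% to 22.4% of the summed P450 level in Control, 0.632% to 4.82% in AOM/DSS + IgG Ab and 4.16% to 30.1% in AOM/DSS + anti-S100a9 Ab. The adjusted p for IgG versus Control ranged from 0.0192 to 0.101 when single mice were left out, and the call held in 3 of these 9 fits, those without IgG replicate 2, anti-S100a9 replicate 2 or anti-S100a9 replicate 3.

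Cyp2c69 lies in the same gene cluster on chromosome 19, at chr19:39842814-39886799 on the minus strand. Its level was 1.96, 1.82 and 1.71 FPKM in Control, 0.0215, 0.461 and 0.170 FPKM in the IgG mice and 0.475, 0.278 and 0.720 FPKM in the anti-S100a9 mice. Both AOM/DSS groups lay wholly below Control and overlapped each other. Cyp2c69 was downregulated in AOM/DSS + IgG Ab versus Control, with log2 fold change -2.87 (SE 0.52, adjusted p = 0.0120), and the call held in all 9 fits without 1 mouse. In AOM/DSS + anti-S100a9 Ab versus Control the difference was -1.78 (SE 0.52, adjusted p = 0.301), which missed the threshold. Of the 50-base stretches of its longest coding transcript, 54.8% also occur in other genes, mainly in Cyp2c40, so that its reads may be split between copies. Cyp2c40 itself was listed at 0.0191, 0.0441 and 0.0614 FPKM in Control and at 0 in the other 6 mice, and it was called lower in AOM/DSS + IgG Ab versus Control only when no filter on low values was applied.

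The other CYP2C genes did not all follow these patterns. Cyp2c68 was at 11.5, 14.9 and 10.7 FPKM in Control, 0.764, 5.92 and 5.27 FPKM in the IgG mice and 8.41, 14.1 and 9.30 FPKM in the anti-S100a9 mice. IgG was the lowest group without overlap with either of the others, but the differences of -2.03 (SE 0.65, adjusted p = 0.0773) from Control and 1.78 (SE 0.65, adjusted p = 0.0777) between the antibodies missed the threshold. Cyp2c65, the neighbour of Cyp2c55 at a distance of 18.3 kb, was at 1.26, 1.35 and 1.08 FPKM in Control, 0.275, 1.96 and 1.17 FPKM in the IgG mice and 2.43, 1.90 and 1.96 FPKM in the anti-S100a9 mice. Only IgG replicate 1 stood low for this gene, and the log2 fold change from Control was -0.42 (SE 0.53, adjusted p = 0.636) with a 95% interval from -1.62 to 0.79. Cyp2c67 was at 0.767 to 1.19 FPKM in Control, 0.113 to 0.856 FPKM in the IgG mice and 0.619 to 0.784 FPKM in the anti-S100a9 mice, without a call in any comparison.

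Cyp2c44 (named Cyp2c23 by RefSeq, at chr19:44005022-44029256), an epoxygenase of arachidonic acid, was the CYP2C gene called between the antibodies. Its level was 0.429, 0.351 and 0.318 FPKM in Control, 0.0825, 0.256 and 0.122 FPKM in the IgG mice and 0.633, 0.680 and 0.467 FPKM in the anti-S100a9 mice. The anti-S100a9 mice lay above both other groups. Cyp2c44 was higher in AOM/DSS + anti-S100a9 Ab than in AOM/DSS + IgG Ab, with log2 fold change 1.50 (SE 0.31, adjusted p = 0.0171). Without anti-S100a9 replicate 1 or replicate 2 the adjusted p was 0.0644 and 0.0679, respectively.

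The CYP2D genes, relatives of the human drug-metabolizing enzyme of that subfamily, form a cluster on chromosome 15 between 82370527 and 82794294. All 6 tested members had each IgG mouse below each Control mouse, and Cyp2d34, Cyp2d10 and Cyp2d22 passed the test, against 10.2% of all tested genes lower without overlap and 3.01% called lower. Cyp2d34, the P450 gene with the highest mean level, was at 61.7, 71.2 and 87.3 FPKM in Control, 8.23, 38.8 and 22.3 FPKM in the IgG mice and 40.9, 41.3 and 48.8 FPKM in the anti-S100a9 mice. The 3 groups did not overlap, and the anti-S100a9 mice lay between the others. Its log2 fold change -1.91 (SE 0.46, adjusted p = 0.0325) in AOM/DSS + IgG Ab versus Control compares with 1.17 (SE 0.46, adjusted p = 0.0970) between the antibodies and -0.74 (SE 0.46, adjusted p = 0.432) for AOM/DSS + anti-S100a9 Ab versus Control.

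Cyp2d10 was at 22.1, 19.4 and 29.6 FPKM in Control, 2.99, 11.9 and 9.59 FPKM in the IgG mice and 16.0, 18.1 and 23.9 FPKM in the anti-S100a9 mice, and was downregulated in AOM/DSS + IgG Ab versus Control with log2 fold change -1.72 (SE 0.45, adjusted p = 0.0435). Cyp2d22 was at 14.7, 17.4 and 11.9 FPKM, 2.59, 8.89 and 4.74 FPKM and 10.7, 6.87 and 9.73 FPKM in the same order, with log2 fold change -1.58 (SE 0.39, adjusted p = 0.0367). For both genes IgG replicate 1 was the lowest and IgG replicate 2 the highest of the IgG mice. Cyp2d9 was at 20.8, 16.2 and 17.1 FPKM in Control, 0.482, 10.1 and 5.36 FPKM in the IgG mice and 9.33, 12.4 and 25.2 FPKM in the anti-S100a9 mice, and its difference of -2.50 (SE 0.90, adjusted p = 0.105) from Control missed the threshold. Cyp2d12 and Cyp2d26 had log2 fold changes of -2.65 (SE 0.86, adjusted p = 0.0797) and -1.73 (SE 0.53, adjusted p = 0.0682). Of these 3 downregulated genes, Cyp2d10 and Cyp2d34 were called in 2 of 9 fits without 1 mouse and Cyp2d22 in 1, the one without IgG replicate 2, and the highest adjusted p was 0.104, 0.0947 and 0.122, respectively. The fits that kept Cyp2d10 and Cyp2d34 were those without IgG replicate 1 and without IgG replicate 2. The copies resemble each other. In the longest coding transcripts, 40.5% of the 50-base stretches of Cyp2d10, 13.7% of those of Cyp2d34 and 6.14% of those of Cyp2d22 were found in other genes.

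In both comparisons with the IgG group, the markers of absorptive colonocytes moved in the same direction as the CYP2C and CYP2D means. All 6 (Slc26a3, Car4, Aqp8, Krt20, Car1 and Ceacam20) were lower in every IgG mouse than in every Control mouse, and Slc26a3, Car4, Car1 and Ceacam20 passed the test, against 10.2% and 3.01% of all tested genes. Leaving out 1 mouse at a time kept the call of Car4 in 7 of 9 fits and those of Car1 and Ceacam20 in 3 each. With anti-S100a9 all 6 were higher than in every IgG mouse and the same 4 passed, against 18.5% and 6.72%. Their sum was 1242, 1491 and 1073 FPKM in Control, 109, 452 and 273 FPKM in the IgG mice and 789.7, 1198 and 1786 FPKM in the anti-S100a9 mice. None of the 6 was at 0 in any mouse. In AOM/DSS + anti-S100a9 Ab versus Control, 3 of the 6 markers had a lower mean and 0 were lower without overlap. There, all 6 tested CYP2D genes had a lower mean, 3 of them without overlap. Of the 6 tested CYP2C genes, 4 had a lower mean, 1 was lower without overlap and 2 were higher without overlap. Over all tested genes, 46.6% had a lower mean, 13.7% were lower without overlap and 17.3% higher without overlap. IgG replicate 1, which had the lowest absorptive sum, also had the lowest CYP2C and CYP2D sums. IgG replicate 2 had the highest of the IgG mice for all 3 sums. Of all mice, IgG replicate 1 was also lowest for summed markers of goblet cells, adipocytes, smooth muscle, macrophages and endothelium. It was not the lowest for those of epithelium, squamous epithelium, hepatocytes, fibroblasts, neutrophils, B and plasma cells or T cells. In bulk tissue, fewer cells of a type and less RNA per cell cannot be told apart, and the part of the absorptive cells in the P450 differences was not tested.

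**Figure D3:**
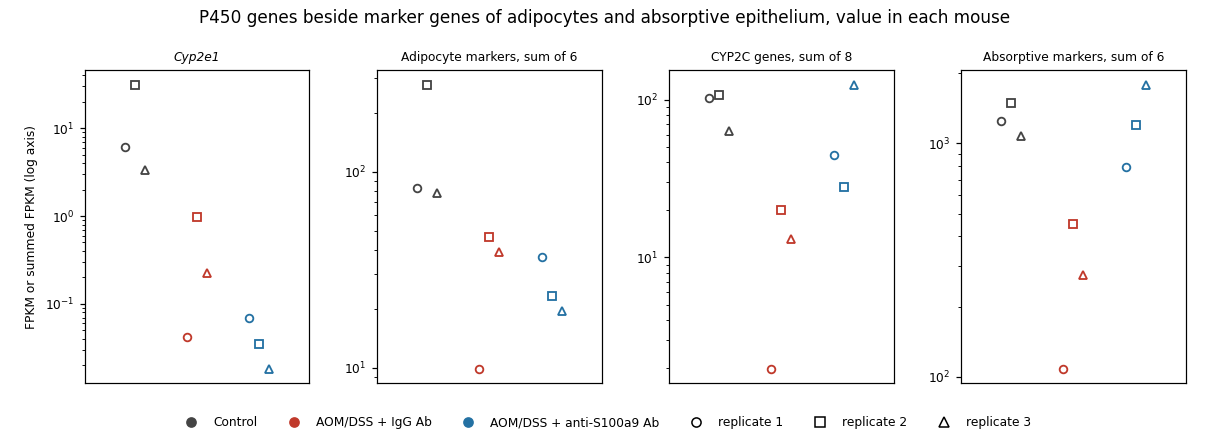
Level of Cyp2e1, summed level of 6 adipocyte markers, summed level of the 8 CYP2C genes and summed level of 6 absorptive epithelium markers in each mouse, in FPKM on log axes, with 1 symbol per mouse. Cyp2e1 and the adipocyte markers are low in both AOM/DSS groups, whereas the CYP2C genes and the absorptive markers are low in the IgG mice and higher in the anti-S100a9 mice.

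Among the remaining CYP2 genes, Cyp2e1 fell and Cyp2b10 rose in AOM/DSS + IgG Ab versus Control. Cyp2e1, which oxidizes ethanol and other small molecules, was at 6.07, 31.2 and 3.31 FPKM in Control, 0.0419, 0.966 and 0.227 FPKM in the IgG mice and 0.0687, 0.0350 and 0.0184 FPKM in the anti-S100a9 mice. Control mice differed widely among themselves but all lay above both AOM/DSS groups, which overlapped. Cyp2e1 (chr7:140763739-140774987, plus strand) was downregulated in AOM/DSS + IgG Ab versus Control, with log2 fold change -4.57 (SE 0.89, adjusted p = 0.0151), and this held in all 9 fits without 1 mouse. In AOM/DSS + anti-S100a9 Ab versus Control the log2 fold change was larger, -5.97 (SE 0.89, adjusted p = 0.152), and missed the threshold after adjustment in a comparison where 0.0131% of all genes were called. Between the antibodies its mean was lower with anti-S100a9, in the other direction from the CYP2C and CYP2D means, with a difference of -1.40 (SE 0.89, adjusted p = 0.266) that missed the threshold.

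Adipocyte markers moved with Cyp2e1, which adipose tissue is known to express. Adiponectin (Adipoq) was at 4.26, 16.9 and 2.99 FPKM in Control, 0, 1.23 and 0 FPKM in the IgG mice and 0.0474, 0 and 0 FPKM in the anti-S100a9 mice. Of the 6 markers, 5 were tested, all 5 were lower in every IgG mouse than in every Control mouse, and Adipoq, Plin1, Cfd and Cidec passed the test, against 10.2% and 3.01% of all tested genes. Leaving out 1 mouse at a time kept the call of Adipoq in 5 of 9 fits, of Cidec in 2 and of Cfd in 1. The list summed to 77.8 to 278 FPKM in Control, 9.92 to 46.3 FPKM in the IgG mice and 19.5 to 36.8 FPKM in the anti-S100a9 mice. Adipoq and Lep were at 0 in IgG replicates 1 and 3 and in anti-S100a9 replicates 2 and 3. Control replicate 2 had the highest value of both Cyp2e1 and Adipoq. The part of fat tissue in the Cyp2e1 difference was not tested.

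Cyp2b10, a drug-metabolizing enzyme known as a target of the nuclear receptor CAR, was nearly silent outside the IgG group. It was at 0.0188, 0.0222 and 0.0861 FPKM in Control, 2.68, 2.16 and 3.10 FPKM in the IgG mice and 0.118, 0.0682 and 0.0182 FPKM in the anti-S100a9 mice. The 3 IgG mice were close to each other and above all others. Cyp2b10 (chr7:25897620-25926624, plus strand) was upregulated in AOM/DSS + IgG Ab versus Control, with log2 fold change 4.29 (SE 0.33, adjusted p = 3.59e-04). It was downregulated in AOM/DSS + anti-S100a9 Ab versus AOM/DSS + IgG Ab, with log2 fold change -4.06 (SE 0.33, adjusted p = 9.83e-04), where 14.4% of all tested genes were called lower. Outside the IgG group only anti-S100a9 replicate 1 reached 0.1 FPKM, so that Cyp2b10 passed the filter through the group in which it was high, and its fold changes depend on the 0.1 added. Both calls held in all 9 fits without 1 mouse. Its neighbour Cyp2s1 lies 80.7 kb away and was at 17.3, 20.2 and 19.7 FPKM in Control, 1.75, 15.0 and 9.17 FPKM in the IgG mice and 12.8, 25.2 and 22.5 FPKM in the anti-S100a9 mice, with a log2 fold change in the other direction of -1.58 (SE 0.66, adjusted p = 0.149). Nr1i3, which encodes CAR, stayed low, at 0.303 to 0.475 FPKM in Control, 0.127 to 0.402 FPKM in the IgG mice and 0.168 to 0.423 FPKM in the anti-S100a9 mice.

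Cyp2w1, a P450 known from fetal gut and colon tumours, was at 6.65, 5.73 and 3.07 FPKM in Control, 1.54, 2.41 and 1.60 FPKM in the IgG mice and 2.80, 7.53 and 3.10 FPKM in the anti-S100a9 mice. The IgG mice were the lowest, without overlap, and the difference from Control of -1.38 (SE 0.42, adjusted p = 0.0681) missed the threshold. Cyp2f2 was at 9.82, 6.95 and 6.79 FPKM, 0.244, 4.26 and 1.32 FPKM and 1.08, 1.56 and 4.56 FPKM in the same order, with -2.61 (SE 0.84, adjusted p = 0.0792) in AOM/DSS + IgG Ab versus Control. Cyp2u1 ranged from 0.147 to 0.348 FPKM over the 9 mice. Cyp2a5, Cyp2a12 and Cyp2b23 reached at most 0.167 FPKM and were not tested.

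Cyp21a1, steroid 21-hydroxylase, makes precursors of glucocorticoids and mineralocorticoids and is best known from the adrenal gland. It was at 0.0207, 0 and 0 FPKM in Control, 4.43, 0.782 and 9.65 FPKM in the IgG mice and 0.0183, 0 and 0 FPKM in the anti-S100a9 mice. Above 0.1 FPKM it was seen in IgG mice only, so that it passed the filter through the group in which it was high. Cyp21a1 (chr17:34801348-34804561, minus strand) had log2 fold change 4.99 (SE 0.73, adjusted p = 0.00489) in AOM/DSS + IgG Ab versus Control and -5.00 (SE 0.73, adjusted p = 0.00604) in AOM/DSS + anti-S100a9 Ab versus AOM/DSS + IgG Ab, values that depend on the 0.1 added. When any 1 of the IgG mice was left out, Cyp21a1 no longer reached the filter. The 6 other fits kept every IgG mouse, so that both calls holding in them adds no support. In the longest coding transcript of Cyp21a1, 23.7% of the 50-base stretches occur also in the pseudogene Cyp21a2-ps. The exons of Cyp21a1 overlap those of Tnxa on the opposite strand by 102 bases, so that reads cannot be assigned with certainty.

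The other steroid enzymes were scarce. Cyp11a1, which starts steroid synthesis from cholesterol, was at 0.201, 0.358 and 0 FPKM in Control, 0.210, 0.363 and 0.303 FPKM in the IgG mice and 0.0639, 0.157 and 0.125 FPKM in the anti-S100a9 mice, with 0.69 (SE 0.52, adjusted p = 0.408) and -0.87 (SE 0.52, adjusted p = 0.243) in the first and second comparison. Cyp11b1, which completes corticosterone synthesis, was at 0 in all mice, and Cyp19a1 (aromatase) was at 0.0132 FPKM in IgG replicate 2 and at 0 elsewhere. Nr5a2, a nuclear receptor known to drive steroid synthesis in the gut, was at 7.55, 8.75 and 5.26 FPKM in Control, 0.249, 3.53 and 1.75 FPKM in the IgG mice and 5.27, 7.38 and 6.61 FPKM in the anti-S100a9 mice, with a difference in the IgG mice of -2.43 (SE 0.71, adjusted p = 0.0599) that missed the threshold.

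**Figure D4:**
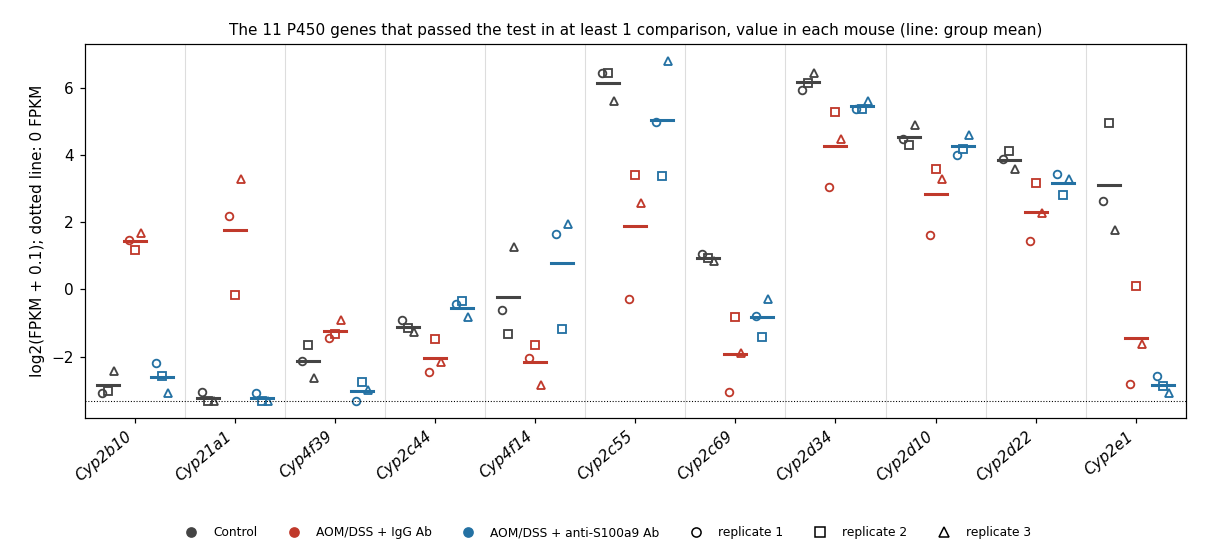
Log2(FPKM + 0.1) in each mouse for the 11 P450 genes called in at least 1 comparison, with group means as lines and the level of 0 FPKM as a dotted line. Cyp2b10 and Cyp21a1 are high in the IgG mice only, the CYP2C and CYP2D genes have their lowest mean in the IgG mice, and Cyp2e1 is low in both AOM/DSS groups.

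The CYP4 family had 16 members, of which 10 were tested and 0 were called by limma in AOM/DSS + IgG Ab versus Control, with 1 higher and 2 lower at an unadjusted p under 0.05, against 19.4% and 10.1% of all tested genes. Cyp4f14, an omega-hydroxylase of leukotriene B4, was at 0.551, 0.299 and 2.28 FPKM in Control, 0.143, 0.220 and 0.0397 FPKM in the IgG mice and 3.01, 0.339 and 3.75 FPKM in the anti-S100a9 mice. Every IgG mouse was below every other mouse, while the Control and anti-S100a9 mice overlapped. Cyp4f14 was higher in AOM/DSS + anti-S100a9 Ab than in AOM/DSS + IgG Ab, with log2 fold change 2.97 (SE 0.90, adjusted p = 0.0468), but was called in 2 of 9 fits without 1 mouse, those without Control replicate 3 and without anti-S100a9 replicate 2, and the adjusted p ranged from 0.0335 to 0.143. In this comparison 6.72% of all tested genes were called higher.

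Cyp4f39, an omega-hydroxylase of very long fatty acids known from the skin barrier, was at 0.129, 0.217 and 0.0609 FPKM in Control, 0.267, 0.296 and 0.435 FPKM in the IgG mice and 0, 0.0469 and 0.0252 FPKM in the anti-S100a9 mice. The 3 groups did not overlap, with IgG the highest and anti-S100a9 the lowest. It was lower in AOM/DSS + anti-S100a9 Ab than in AOM/DSS + IgG Ab, with log2 fold change -1.80 (SE 0.33, adjusted p = 0.0126), and without anti-S100a9 replicate 1 the adjusted p was 0.0517. Keratins of squamous epithelium were highest in the same group as Cyp4f39, Cyp2b10 and Cyp21a1. Krt14, Krt4 and Krt13 were upregulated in AOM/DSS + IgG Ab versus Control and downregulated with anti-S100a9, 3 of 6 markers in the list, where 8.18% and 14.4% of all tested genes were called in these directions. The list summed to 1.02 to 2.10 FPKM in Control, 7.53 to 48.6 FPKM in the IgG mice and 1.60 to 3.48 FPKM in the anti-S100a9 mice, whereas the defining marker Sprr3 was at 0 in all mice and Trp63 reached 0.0223 FPKM at most. The part of squamous cells was not tested.

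Other CYP4F genes differed less. Cyp4f40, the most abundant of them, was at 15.6, 15.7 and 18.9 FPKM in Control, 5.55, 13.4 and 10.4 FPKM in the IgG mice and 9.27, 20.0 and 14.9 FPKM in the anti-S100a9 mice, with -0.85 (SE 0.35, adjusted p = 0.149) in AOM/DSS + IgG Ab versus Control. Cyp4f13 and Cyp4f16 stayed between 5.73 and 13.5 FPKM in all mice. Cyp4f18, a leukotriene B4 hydroxylase of leukocytes, varied mainly within groups, at 4.90, 1.88 and 13.8 FPKM in Control, 1.36, 6.07 and 4.42 FPKM in the IgG mice and 6.30, 0.804 and 5.98 FPKM in the anti-S100a9 mice. Cyp4b1, which activates protoxins in the lung, was at 0.362, 0.704 and 0.724 FPKM, 0.261, 0.627 and 0.486 FPKM and 1.41, 0.399 and 0.872 FPKM, with overlap of all groups. Cyp4v3, Cyp4f17 and Cyp4x1 were tested without a call, and Cyp4a10, Cyp4a14, Cyp4a29, Cyp4a32, Cyp4f15 and Cyp4f37 reached at most 0.0643 FPKM.

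The aryl hydrocarbon receptor targets of family CYP1 were low. Cyp1a1, which oxidizes polycyclic aromatic hydrocarbons, was at 0.120, 0.283 and 0.107 FPKM in Control, 0, 0.0123 and 0 FPKM in the IgG mice and 0.0237, 0.0728 and 0.294 FPKM in the anti-S100a9 mice. All IgG mice lay below all others, but the differences of -1.32 (SE 0.45, adjusted p = 0.0914) from Control and 0.97 (SE 0.45, adjusted p = 0.143) between the antibodies missed the threshold. Ahrr, a repressor and another target of the same receptor, passed in both comparisons, with -1.96 (SE 0.37, adjusted p = 0.0133) and 2.30 (SE 0.37, adjusted p = 0.00820). Its level was 1.04, 0.909 and 0.662 FPKM in Control, 0.0972, 0.319 and 0.0791 FPKM in the IgG mice and 0.977, 0.993 and 1.40 FPKM in the anti-S100a9 mice. The receptor gene Ahr did not pass, at 3.45 to 5.46 FPKM, 4.64 to 8.51 FPKM and 6.64 to 6.83 FPKM in the 3 groups. Cyp1b1 was at 0.114, 0.00936 and 0.103 FPKM, 0.0262, 1.07 and 0.118 FPKM and 0.272, 0.0746 and 0.345 FPKM, with IgG replicate 2 far above the rest.

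Among the other drug and fatty acid enzymes, Cyp3a13 was the CYP3A gene with a level to test, at 25.6, 23.2 and 7.02 FPKM in Control, 2.59, 12.2 and 14.6 FPKM in the IgG mice and 7.66, 9.51 and 8.28 FPKM in the anti-S100a9 mice. The anti-S100a9 mice were close to Control replicate 3 and lay well below the other Control mice, and the log2 fold change from Control was -0.92 (SE 0.67, adjusted p = 0.492). Cyp3a11, Cyp3a16, Cyp3a44 and Cyp3a57 reached at most 0.0324 FPKM. Cyp2j6, an epoxygenase of arachidonic acid, was at 9.0, 10.7 and 8.996 FPKM in Control, 14.7, 9.06 and 16.7 FPKM in the IgG mice and 8.82, 14.2 and 6.94 FPKM in the anti-S100a9 mice, with overlap of all groups. Cyp2j9 was lowest in the IgG mice, at 0.332 to 0.729 FPKM against 0.744 to 1.87 FPKM in Control and 0.972 to 1.30 FPKM with anti-S100a9, and was not called.

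None of the tested genes for sterols (4 tested), vitamin D (2 tested) and retinoic acid (1 tested) was called by limma in any comparison. At an unadjusted p under 0.05 they were 1 higher in the first comparison, 1 lower in the second and 1 higher in the third. The shares of all tested genes in these directions were 19.4%, 24.2% and 8.87%, respectively. Cyp27a1, the mitochondrial sterol 27-hydroxylase, was at 10.0, 9.50 and 15.4 FPKM in Control, 19.1, 11.8 and 26.6 FPKM in the IgG mice and 11.7, 8.52 and 11.7 FPKM in the anti-S100a9 mice. It had its highest values in IgG mice, and the differences of 0.67 (SE 0.31, adjusted p = 0.184) from Control and -0.78 (SE 0.31, adjusted p = 0.0977) between the antibodies missed the threshold. Cyp7b1, an oxysterol 7-hydroxylase, was at 1.26, 0.857 and 1.21 FPKM in Control, 1.35, 2.25 and 2.26 FPKM in the IgG mice and 2.84, 2.66 and 1.78 FPKM in the anti-S100a9 mice. Both AOM/DSS groups lay above Control without overlap, and the log2 fold changes of 0.74 (SE 0.29, adjusted p = 0.133) and 1.05 (SE 0.29, adjusted p = 0.301) were not called. Cyp39a1 ranged from 2.89 to 6.28 FPKM, Cyp46a1 reached at most 0.602 FPKM, and Cyp8b1 was not tested.

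Cyp27b1, which activates vitamin D, was at 0.126, 0.0430 and 0.371 FPKM in Control, 0.103, 0.152 and 0.0399 FPKM in the IgG mice and 0.0964, 0.0656 and 0.106 FPKM in the anti-S100a9 mice. Cyp24a1, which clears it, was at 0.0102 FPKM in anti-S100a9 replicate 2 and at 0 elsewhere. Cyp2r1, the vitamin D 25-hydroxylase, was at 0.0869 to 0.290 FPKM, 0.0264 to 0.321 FPKM and 0.171 to 0.208 FPKM in the 3 groups. Vdr, the vitamin D receptor, was at 48.1, 70.5 and 55.4 FPKM in Control, 6.60, 29.6 and 18.1 FPKM in the IgG mice and 53.3, 71.8 and 45.5 FPKM in the anti-S100a9 mice. It was downregulated in AOM/DSS + IgG Ab versus Control and higher with anti-S100a9 than with IgG, with -1.90 (SE 0.47, adjusted p = 0.0346) and 1.87 (SE 0.47, adjusted p = 0.0272), respectively.

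Of the enzymes that clear retinoic acid, Cyp26b1 was at 1.94, 0.729 and 1.39 FPKM in Control, 0.813, 1.77 and 1.86 FPKM in the IgG mice and 1.87, 1.45 and 2.54 FPKM in the anti-S100a9 mice, with overlap of all groups. Cyp26a1 was at 0 in all Control mice, at 0.257, 0.0534 and 0.250 FPKM in the IgG mice and at 0.0248, 0 and 0 FPKM in the anti-S100a9 mice. Too few mice reached 0.1 FPKM for it to be tested, and it was the highest of the 23 untested genes. Without the filter on low values it was called in both comparisons with the IgG group. The orphan Cyp20a1 was among the most even P450 genes, from 6.54 to 13.6 FPKM over the 9 mice. The untested genes not named so far, Cyp26c1, Cyp2c70, Cyp2d11, Cyp2j8 and Cyp2j13, reached at most 0.128 FPKM. Over all untested genes, 9 were above 0 in 1 mouse only.

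Between the antibody groups, the tested P450 genes had a median log2 fold change of 0.53, against -0.06 over all tested genes, and 14 of 43 had a lower mean, against 53.6%. With anti-S100a9, 2 were called higher (Cyp2c44 and Cyp4f14) and 3 lower (Cyp21a1, Cyp2b10 and Cyp4f39), against 6.72% and 14.4% of all tested genes, and without overlap 10 of 43 were higher and 6 lower, against 18.5% and 28.5% of all tested genes. At an unadjusted p under 0.05, 12 were higher and 4 lower, against 14.9% and 24.2% of all tested genes, and of these 10 and 3 also changed over 2-fold, against 7.64% and 8.38%. Without IgG replicate 2 the number called higher was 13, and it was 0 without anti-S100a9 replicate 1. It was 1 without anti-S100a9 replicate 2 or 3, IgG replicate 1 or 3, or Control replicate 1 or 2. With the log2 values of each mouse shifted so that the epithelium markers were equal, it was 6, namely Cyp2c44, Cyp2c55, Cyp2c68, Cyp2d10, Cyp2d26 and Cyp4f14. This shift moves all genes alike, from a median of -0.06 to 0.20 over all tested genes, of which 7.55% were then called higher, and it rests in part on Krt18, which was itself called lower with anti-S100a9. For the fits without 1 mouse the share of all tested genes called higher is not given, so those counts cannot be read as particular to P450 genes. This comparison shares its IgG mice with AOM/DSS + IgG Ab versus Control, so that opposite signs in the 2 comparisons are not independent.

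In AOM/DSS + anti-S100a9 Ab versus Control, limma called 0 P450 genes, where 0.00655% of all tested genes were called in each direction. At an unadjusted p under 0.05, 2 P450 genes were higher and 5 lower, against 8.87% and 7.1% of all tested genes. With a change of over 2-fold as well, 1 was higher (Cyp7b1) and 3 were lower (Cyp2c69, Cyp2e1 and Cyp2f2), against 2.28% and 0.864% of all tested genes. A lower mean than in Control was found for 26 of 43, against 46.6% of all tested genes. Among them were all 6 tested CYP2D genes, with log2 fold changes from -0.86 to -0.12, and 3 of these 6 had every anti-S100a9 mouse below every Control mouse, against 13.7% of all tested genes. A p that misses the threshold with 3 mice per group does not show that the groups are alike.

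**Figure D5:**
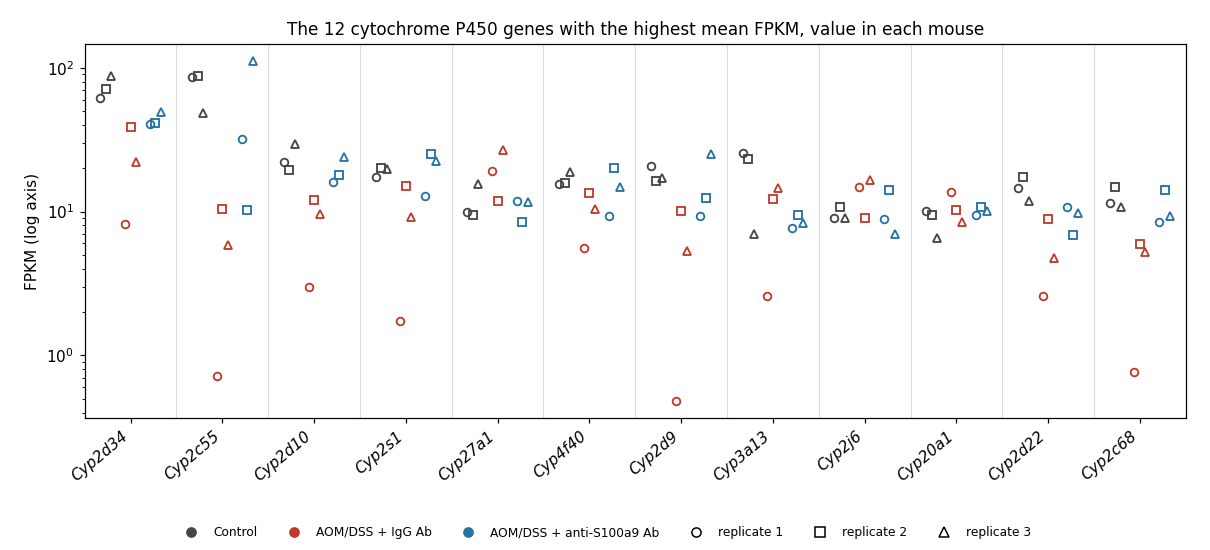
FPKM, on a log axis, of the 12 P450 genes with the highest mean in each mouse, coloured by group and with a symbol per replicate. For the CYP2C and CYP2D genes and Cyp2s1, IgG replicate 1 is the lowest mouse, while for Cyp20a1, Cyp27a1 and Cyp2j6 the highest mouse is an IgG mouse.

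Partner genes of the P450 enzymes were examined in the same fit. None of the 6 electron donors was called by limma in AOM/DSS + IgG Ab versus Control, with 2 higher at an unadjusted p under 0.05, against 19.4% of all tested genes. The reductase gene Por was at 30.6, 27.7 and 26.8 FPKM in Control, 45.2, 28.9 and 52.2 FPKM in the IgG mice and 26.1, 30.2 and 27.6 FPKM in the anti-S100a9 mice. Between the antibodies, all 6 donors had a lower mean with anti-S100a9, against 53.6% of all tested genes, 5 were lower at an unadjusted p under 0.05, against 24.2%, and 4 were lower without overlap, against 28.5%. Of these, the cytochrome b5 reductase Cyb5r3 was called by limma, where 14.4% of all tested genes were called lower, at -0.63 (SE 0.19, adjusted p = 0.0433). Of 10 genes of haem synthesis and breakdown, Hmox1, which breaks haem down, was the 1 called in AOM/DSS + IgG Ab versus Control, where 8.18% of all tested genes were called higher, at 1.89 (SE 0.37, adjusted p = 0.0154). At an unadjusted p under 0.05, 3 of the 10 were higher, against 19.4% of all tested genes. With anti-S100a9, 9 of the 10 had a lower mean than with IgG, against 53.6% of all tested genes. At an unadjusted p under 0.05, 6 were lower, against 24.2%. Without overlap 7 were lower, against 28.5%, and 3 were called, against 14.4%. These 3 were Hmox1, Alad and Urod, at -1.40 (SE 0.37, adjusted p = 0.0313), -1.42 (SE 0.25, adjusted p = 0.0114) and -0.70 (SE 0.19, adjusted p = 0.0344). Alas1, the rate-limiting enzyme of haem synthesis, was not called.

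Of 18 receptors and factors known to regulate P450 genes, 17 were tested. In AOM/DSS + IgG Ab versus Control, Ahrr and Vdr were lower and the retinoic acid receptor Rarb was higher, at 1.34 (SE 0.37, adjusted p = 0.0489), where 3.01% and 8.18% of all tested genes were called lower and higher. At an unadjusted p under 0.05, 7 regulators were lower and 2 higher, against 10.1% and 19.4% of all tested genes. Between the antibodies, 5 were higher with anti-S100a9 and 0 lower by limma, against 6.72% and 14.4% of all tested genes, and at an unadjusted p under 0.05 there were 6 higher and 3 lower, against 14.9% and 24.2%. Besides Ahrr and Vdr, those called were Ppara, Rxra and Hnf4a, at 1.69 (SE 0.47, adjusted p = 0.0361), 0.49 (SE 0.13, adjusted p = 0.0335) and 0.69 (SE 0.19, adjusted p = 0.0328). Hnf4a, whose motif is marked in the Cyp2c69 promoter above, was at 124, 129.5 and 107 FPKM in Control, 59.6, 93.0 and 76.6 FPKM in the IgG mice and 106, 132 and 128 FPKM in the anti-S100a9 mice, and its difference from Control in the IgG mice was -0.67 (SE 0.19, adjusted p = 0.0503). Nr1i2, the xenobiotic receptor PXR, was at 20.1, 25.3 and 27.9 FPKM, 7.07, 15.9 and 17.8 FPKM and 18.3, 19.2 and 17.9 FPKM and was not called. The 3 related haem-thiolate enzymes outside the symbol rule (Cyp51, Ptgis and Tbxas1) were not called by limma in any comparison, with 0 at an unadjusted p under 0.05. In AOM/DSS + anti-S100a9 Ab versus Control limma called none of the partner genes, and at an unadjusted p under 0.05 there were 2 lower electron donors, 3 lower haem genes and 1 higher regulator, against 7.1% of all tested genes lower and 8.87% higher.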

How the data were processed

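Colon RNA of 9 mice, 3 per group, was sequenced, and for each mouse the authors deposited a table of FPKM values, 21544 rows long, with a symbol for each row. No file names its unit, which was inferred from the decimal values and their totals. The submitters' processing notes name TopHat, Cufflinks, HTSeq and DESeq and the build GRCm38. No counts are given, so absolute depth is unknown, no counting error was computed, and the precision comes from the 3 mice per group. All deposited columns of per-sample values were used. Samples were grouped by their titles.

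From the deposited FPKM values, 46 repeated rows were summed to 21498 symbols, none of them a P450 gene. The comparisons used R 4.3.3 and limma 3.58.1 on log2(FPKM + 0.1) of the 15278 genes that reached 0.1 FPKM in 3 or more samples, fitting all 9 samples with an intensity trend and no covariates, with Benjamini-Hochberg adjustment over all genes tested. The fit was tested on simulated data. The P450 genes, their classes, the partner and marker lists and the tests were chosen with earlier results of these data known. Genes named with values were those with an adjusted p under 0.05, the 12 with the highest mean, 18 set by name (1 of them at 0 in all mice), partner genes that passed, and others where a class or marker list needed them. Positions and shared 50-base stretches came from GENCODE M21 and promoters from RefSeq. The alternatives tried were other pseudocounts, filters, scalings, samples in the fit, thresholds and leaving out each mouse. Tables and figures used Python 3.11.15, pandas 2.3.3, numpy 2.4.6 and matplotlib 3.10.9.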

Additional observations from a re-analysis of the deposited data

How the results depend on the processing

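Limits come from 3 mice per group and from values without counts. The share of all tested genes called is printed beside only some of the P450 numbers of other settings. For the fits without single mice it is not given. Counts without this share cannot be read as particular to P450 genes. In AOM/DSS + IgG Ab versus Control, 6 P450 genes were called lower and 2 higher. The number lower was 2 in a fit of the 2 groups alone and 16 with the thresholds of the study, and it ranged from 2 to 14 when each mouse was left out. The number higher was 1 with a filter of 1 FPKM and ranged from 1 to 2 without single mice. In AOM/DSS + anti-S100a9 Ab versus AOM/DSS + IgG Ab, 2 were called higher. This number was 1 with a pseudocount of 1, with no filter, without the intensity trend and in the fit of the 2 groups alone. It was 0 with a filter of 1 FPKM (where 6.59% of all tested genes were called), 6 with equal epithelium markers (where the median of all genes moved from -0.06 to 0.20 and 7.55% of them were called higher) and 10 with the thresholds of the study, and it ranged from 0 to 13 without single mice. The number lower was 3, with 1 under a filter of 1 FPKM and a range from 2 to 3 without single mice. In AOM/DSS + anti-S100a9 Ab versus Control, 0 were called in either direction, from 0 to 0 without single mice, and 1 higher and 3 lower with the thresholds of the study. Equal epithelium markers were chosen after seeing the data. Some of these fits hold fewer genes or samples, and the cause of the changes was not tested.

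With the replicate number as a block, the numbers called were 2 higher and 6 lower in the first comparison, 3 and 4 in the second and 0 and 0 in the third. The numbers do not pair the mice, as correlations of deviations between same-numbered mice ran from -0.19 to 0.25. Over the 34 pairs of a named gene and a comparison with an unadjusted p under 0.05, 311 of 332 values under other settings and 248 of 300 without single mice kept their direction and side of the threshold, and 0 reversed. These pairs were chosen by their p in the main fit and the other fits reuse the same mice, so that reversals were unlikely in advance. Median-of-ratios scaling moved the median of all genes in AOM/DSS + IgG Ab versus Control from 0.09 to -0.01 on the log2 scale.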
